A study of Homo sapiens with 20 samples.

Results

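In dabrafenib-resistant WM164 melanoma cells, 441 regions had a peak of histone H3 trimethylated at lysine 4 (H3K4me3) that neither the untreated cells nor the earlier drug-treated colonies had. WM164 is an established melanoma line that carries a BRAF mutation, and dabrafenib is an inhibitor of the BRAF kinase. Peaks from 10 H3K4me3 lists on chromosomes 1 to 22 and X were merged into 1 region where they overlapped or lay within 1000 bp of each other. A region was a member where both resistant lists had a peak and neither parental list nor either colony list had one. The members were 441 of 31428 regions (1.40%), and 441 of the 10357 regions (4.26%) with no parental and no colony peak. Because the members were chosen by the parental, colony and resistant lists, the values in those 6 libraries are given as a description, with no test. A peak in the GFP and NRAS Q61K lists was not a condition, but those peaks helped to set the bounds of the merged regions: leaving out 1 transgene list gave 441 or 442 members.

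All groups were WM164 cells with 2 H3K4me3 libraries each. Parental cells had received the solvent DMSO for the last 3 days. Colony cells had grown for 45 days in 50 nM dabrafenib, and resistant cells for more than 90 days in the same dose. GFP and NRAS Q61K cells overexpressed either green fluorescent protein or the oncogenic Q61K form of the GTPase NRAS, with no drug named for them in the labels. Neither the promoter of these transgenes nor the number of clones behind the resistant cells is stated in the labels.

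H3K4me3 is placed on nucleosomes by methyltransferases of the SET1 and MLL families, mostly around the starts of genes that are transcribed or ready to be transcribed. Its breadth over a start differs between genes, and wide domains are known at genes that matter for the identity of a cell. Mutant BRAF and mutant NRAS both feed the MAP kinase pathway, and activating NRAS mutations are known in melanomas that no longer respond to BRAF inhibitors. No annotation of the genome build of the lists (GRCh37, hg19) was used here, so each region is given by its position and chromosome band and not by a gene. Melanocyte markers could not be looked up for the same reason.

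The 10 lists held 306295 peaks on these chromosomes. The resistant lists were the shortest, with 19111 and 19401 peaks, and the colony lists held 21408 and 21573. The parental lists held 29258 and 30065 peaks, the NRAS Q61K lists 37649 and 40648, and the GFP lists 41806 and 45376. The shortest peak was 255 to 256 bp in the resistant lists, 180 to 202 bp in the parental lists, 282 to 284 bp in the colony lists and 142 to 153 bp in the transgene lists. The lists therefore differed in how many and how short the peaks were that they admitted, and the part of this in the counts below was tested only through the alternative settings. Read depth per library is not known from the peak lists.

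Most members were weak and narrow beside the other peaks of the resistant cells, with a small number of wide and strong exceptions. The mean number of bases under peaks in the 2 resistant libraries had a median of 767 over the 441 members, with quartiles of 465 and 1268.5 and a range from 255.5 to 6747. The authors' fold enrichment of the best peak in a member had a median of 4.26 in resistant 1 and 4.20 in resistant 2, against 7.85 and 7.89 over all peaks of those lists. The authors' −log10 q, which grows as a peak becomes less likely under the caller's background, had a median of 8.60 and 8.43 in members against 27.2 and 27.3 over all peaks. The best peak of a typical member was stronger than 26.6% of the peaks in resistant 1 and 23.8% of those in resistant 2 (medians over members). In both libraries, 143 members had a −log10 q of 10 or more, while 126 members had one under 5 in at least 1 library. Only 26 members had 2000 or more bases in both.

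**Figure D1:**
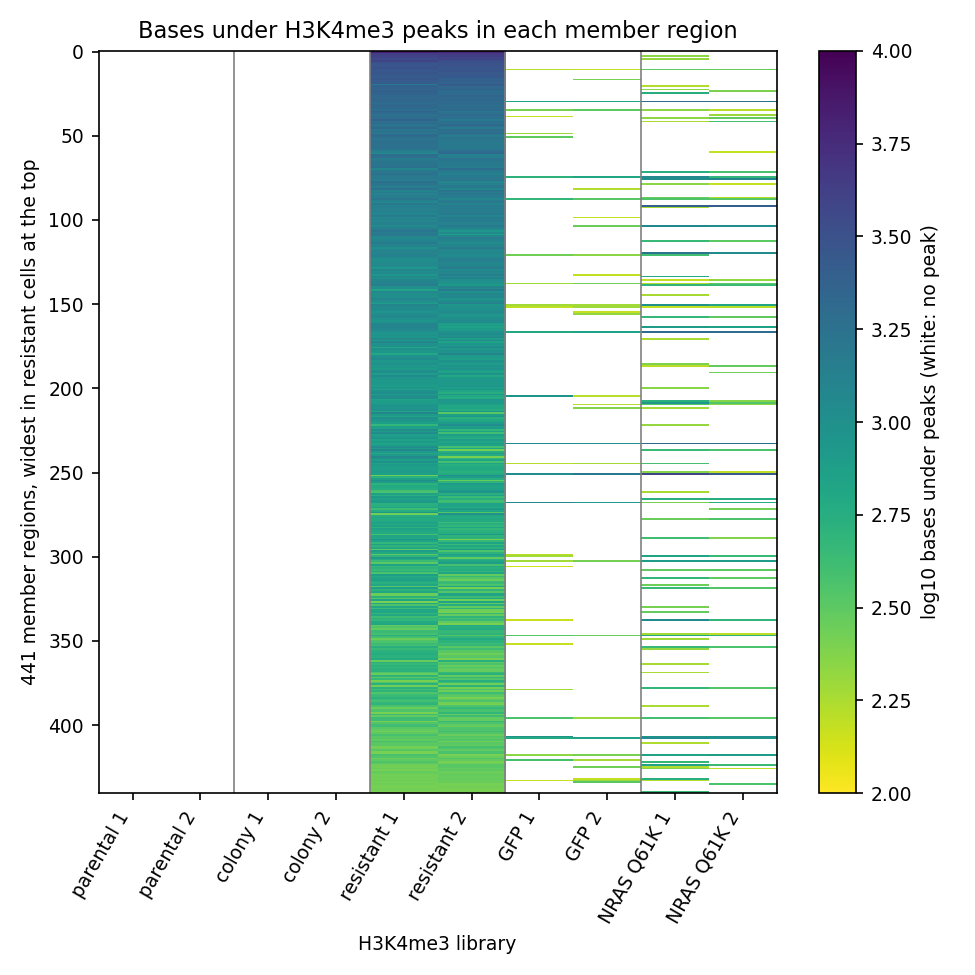
Bases under H3K4me3 peaks in each of the 441 members (rows, sorted by the mean of the resistant libraries) and the 10 libraries (columns), on a log10 colour scale with white for no peak. The parental and colony columns are empty and the resistant columns full by the choice of members, and most rows are white in the 4 transgene columns, in which 338 members had no peak at all.

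The rule asks for a peak of both resistant libraries in the same region, and the members are short, so a small distance between their summits is largely fixed by the choice. The summits of their best peaks lay a median of 135 bp apart, and in 403 members (91.4%) they lay within 500 bp. The coverage in the library with more bases was within 1.5 times that in the other in 328 members (74.4%), and 316 members (71.7%) held exactly 1 peak in each list. Across the 441 members, the bases in resistant 1 and resistant 2 had a Pearson correlation of 0.927 and a Spearman correlation of 0.818. This correlation describes how far both libraries gave the members the same order. Both come from the same resistant cells, and the labels do not say that they are separate cultures.

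**Figure D2:**
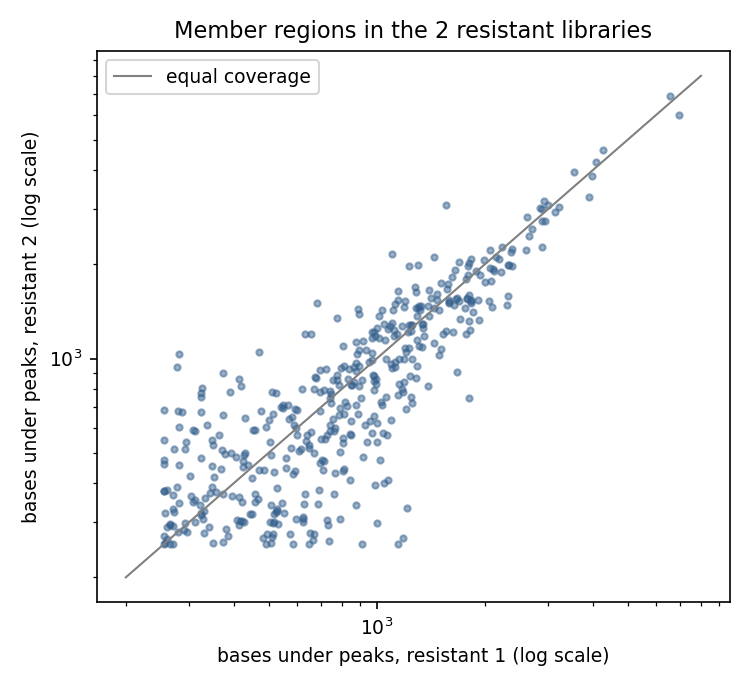
Bases under peaks of each member in resistant 1 (x axis) and resistant 2 (y axis), both on log scales, with 1 point per member and a line of equal coverage. The points follow the line over the whole range, with 328 of 441 within 1.5 times of it.

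The strongest member lay at 15q26.3 (chr15:101418376-101425549, 7174 bp). It had 6934 bases under peaks in resistant 1 and 6014 in resistant 2, with −log10 q of 82.8 and 80.9 and fold enrichments of 16.5 and 15.3. Neither GFP library nor either NRAS Q61K library had a peak there, so the mark was seen in the 2 resistant libraries and in none of the other 8 H3K4me3 libraries. The nearest region marked in both parental lists was 27201 bp away.

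The widest member lay at 14q21.1 (chr14:42071272-42079827, 8556 bp), with 6575 bases in resistant 1 and 6919 in resistant 2. Its −log10 q was 42.6 and 31.2, which ranked it 7 of 441 by strength. It too had no peak in the 4 transgene lists, and the nearest region marked in both parental lists was 645135 bp away. A member at 12q21.31 (chr12:81328669-81333505) was alike in this, with 4263 and 4631 resistant bases, no transgene peak and a gap of 997329 bp to the nearest region in both parental lists.

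Chromosome 19 held 3 of the 5 strongest members. The first, at 19q13.2 (chr19:42055598-42060072), had 4069 and 4230 bases in the resistant libraries, with 221 bases in NRAS Q61K 1 and no peak in NRAS Q61K 2 or in GFP. The second, also at 19q13.2 (chr19:39996776-39999135), had 1445 and 2104 resistant bases, with 199 bases in GFP 1 and none in the other 3 transgene libraries. The third, at 19q13.12 (chr19:35738338-35741349), had 2895 and 3012 resistant bases and a peak in all 4 transgene lists, of 166 and 153 bases in GFP and 306 and 285 in NRAS Q61K. In these 3 members the transgene peaks, where present, were far narrower than the resistant ones. Peaks also differed in width over the whole lists, with medians of 366 to 396 bp in GFP, 436 to 472 bp in NRAS Q61K and 1553 to 1593 bp in the resistant lists. Chromosome 19 as a whole held 18 members, which were 2.18% of its regions marked in both resistant lists.

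Among the other members with the highest −log10 q, 1q32.1 (chr1:201366341-201370330) had 3546 and 3932 resistant bases and 205 bases in NRAS Q61K 1 alone. The member at 2q37.3 (chr2:238535453-238537738) had 1805 and 2012 resistant bases and 199 in NRAS Q61K 2 alone. The member at 9q31.3 (chr9:113798717-113800711) had 1307 and 1995 and a 151-base peak in NRAS Q61K 2 alone. Each of these 3 was thus marked in 1 of the 2 NRAS Q61K libraries by a peak of 151 to 205 bases, at or not far above the shortest in its list. The members at 5p13.2 (chr5:35617266-35619276, 1513 and 1740 resistant bases), 4q21.21 (chr4:81104606-81106609, 2004 and 1755), 1p36.31 (chr1:6506447-6508361, 1663 and 1549) and 11q12.2 (chr11:61484882-61487929, 2939 and 2760) had no peak in any transgene list. The same held for the wide members at Xq25 (chrX:123361648-123365662, 3982 and 3828), 10q24.2 (chr10:100010790-100014911, 3893 and 3286), 12p13.33 (chr12:2160658-2164244, 3223 and 3042) and 1q23.3 (chr1:161165983-161169158, 2921 and 3176).

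Members were scattered over the genome. All 23 chromosomes held some, with the most on chromosome 1 (46), chromosome 5 (40) and chromosome 2 (33). As a share of the regions marked in both resistant lists, members made up most on chromosome 13 (6.92%), chromosome 5 (6.32%) and chromosome 21 (6.29%), and least on chromosome 16 (1.75%), chromosome 11 (1.93%) and chromosome 18 (1.98%). Copy number, which can move such shares in a tumour line, was not measured in the peak lists, and its part in them was not tested. Only 35 members (7.94%) lay within 100000 bp of another member. The gap to the nearest region in both parental lists had a median of 61609 bp, with 65 members (14.7%) within 10000 bp of one and 271 (61.5%) within 100000 bp. Light-staining bands held 54.6% of the members, 57.2% of all regions and 60.9% of the regions marked in both resistant lists. The differences between these shares were not tested.

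The choice of members rests on thresholds of the peak caller. Just inside it were 3 members with the weakest second peak: 15q24.1 (chr15:74499688-74501544), with −log10 q of 5.85 and 1.76 in the resistant libraries, 10q24.33 (chr10:105253261-105253969), with 1.80 and 4.46, and 14q32.33 (chr14:104604211-104604765), with 1.80 and 5.07. Just outside it were 126 regions with a peak in both resistant lists and in exactly 1 parental or colony list. That 1 list was parental 1 for 80 of them, colony 2 for 22, parental 2 for 17 and colony 1 for 7. The weakest such control peaks were at 22q13.1 (chr22:40342605-40344265, −log10 q of 2.16 in colony 2 against 22.4 and 16.1 in the resistant libraries), at 16q12.1 (chr16:50279247-50281036, 2.28 in parental 1 against 14.0 and 17.2) and at 16p11.2 (chr16:28761709-28762256, 2.28 in parental 1 against 11.6 and 8.43). These 3 excluded regions had stronger resistant peaks than the 3 weakest members. This order was largely fixed by the choice, because those members were picked for a weak resistant peak and the excluded regions for a weak control peak.

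Most members had no mark in cells that carried a transgene. A peak in none of the 4 GFP and NRAS Q61K lists was found for 338 members (76.6%), a peak in at least 1 for 103 (23.4%) and a peak in all 4 for 17 (3.85%). Over all 31428 regions these shares were 5.59%, 94.4% and 54.0%. Of the 236 regions in exactly 1 resistant list and in no parental or colony list, 75.4% were in none of the 4, so this share is not particular to the members. Of all 10357 regions with no parental and no colony peak, 3.74% were in all 4. GFP 1 marked 32 members (7.26%) and GFP 2 marked 34 (7.71%), whereas NRAS Q61K 1 marked 81 (18.4%) and NRAS Q61K 2 marked 57 (12.9%). Both NRAS Q61K counts were above both GFP counts, although the GFP lists held more peaks in all. Over all 31428 regions the same 4 lists marked 65.2%, 73.7%, 72.4% and 65.7%. The members' bases under peaks summed to 12673 and 12013 in GFP, 45068 and 32525 in NRAS Q61K and 449551 and 427420 in the resistant libraries. A resistant peak was required by the rule, and peaks of the resistant lists were wider as a whole. With 2 libraries against 2, an exact two-sided permutation test of any 1 such value cannot go below p = 0.333.

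**Figure D3:**
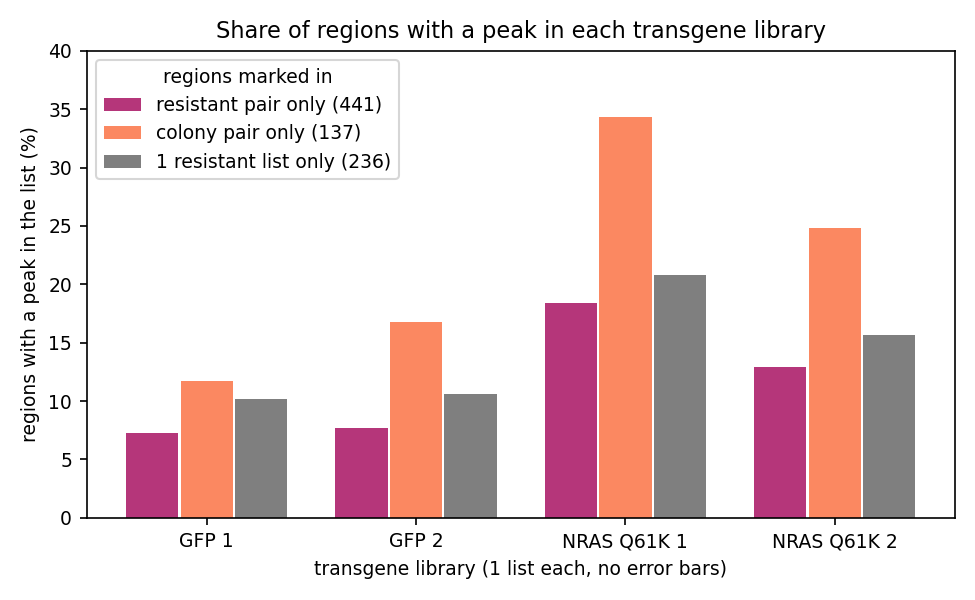
Share of regions with a peak in each transgene list, for the 441 members, for the 137 regions in both colony lists and in no parental or resistant list, and for the 236 regions in exactly 1 resistant list and in no parental or colony list. In each of the 3 sets both NRAS Q61K bars stand above both GFP bars, and the members' bars run from 7.26% (GFP 1) to 18.4% (NRAS Q61K 1).

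Of the members, 29 (6.58%) had a peak in both NRAS Q61K lists and no GFP list, against 3.01% of all regions. The reverse pattern, a peak in both GFP lists and no NRAS Q61K list, was found in 2 members (0.454%), against 1.85% of all regions. Sets chosen in a similar way showed the same lean. Of the 137 regions in both colony lists and in no parental or resistant list, 9 (6.57%) had the first pattern and 1 had the second. Of the 236 regions in exactly 1 resistant list, 14 (5.93%) had the first and 2 the second. Of the 44 regions in both colony and both resistant lists and in no parental list, 9 (20.5%) had the first and 1 the second. Among the 9916 other regions with no parental and no colony peak, 518 (5.22%) had the first and 342 (3.45%) the second. Of those 9916 regions, 98.2% had a peak in at least 1 transgene list, against 23.4% of the members. The differences between these sets were not tested, and the lean is not particular to the members.

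A mark in the transgene cells did not follow the strength of the mark in resistant cells. When the members were ordered by mean −log10 q and divided into 4 classes of like size, 86 of the 111 weakest had no transgene peak, followed by 85, 87 and 80 of 110 in the stronger classes. From the weakest class to the strongest, 4, 9, 7 and 9 members were in both NRAS Q61K lists and no GFP list. Over the 51 members in both NRAS Q61K lists, the mean bases in resistant and in NRAS Q61K cells had a Pearson correlation of 0.029 and a Spearman correlation of -0.086, given as a description across regions.

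The width of the mark in NRAS Q61K and GFP cells was compared with limma, on log2 of the bases under peaks plus 200, with the 10 libraries in 5 groups and Benjamini-Hochberg adjustment over the 23153 regions that 2 or more of the 10 lists marked. Of the 10 libraries, 6 had chosen the members, and 4 of those are at 0 bases in every member and add no spread there, so the calls for members are given as a description and not as a test. All 441 members also passed the filter by their 2 resistant peaks, and 338 of them had no transgene peak to compare. The share of members called therefore depends on the filter. Where a peak in at least 2 transgene libraries was required, 59 members were tested and 38 called wider, against 1210 of 21556 regions. With the filter of 2 or more of the 10 lists, 38 of 441 members (8.62%) were called wider in NRAS Q61K and 1 (0.227%) narrower. Over all 23153 regions tested these shares were 5.06% and 2.18%. The threshold of the limma calls was an adjusted p under 0.05. A fit on the 4 transgene libraries alone takes no spread from a library of the rule, though its regions passed the same filter. It called 0 regions wider and 0 narrower out of 23153. At an unadjusted p under 0.05 in that fit, 40 of 441 members were higher and 2 lower in NRAS Q61K, against 2859 and 1402 of 23153 regions. The smaller share in members was largely fixed by the filter, because 338 of the 441 had no transgene peak to compare. It is not read as a result about the members. A fit without the parental and colony libraries, added after the data were seen, called 32 and 1, but still holds the resistant libraries that chose the members. Of the 38 members called wider with all 10 libraries, 28 had no GFP peak and 10 had one, with log2 differences from 0.86 to 3.79 and a median of 1.45. Where GFP had no peak, the size of the difference depends on the 200 bases added. The median log2 difference over all members was 0.05, which is the shift that centring the libraries gives a region with no peak in any of the 4.

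**Figure D4:**
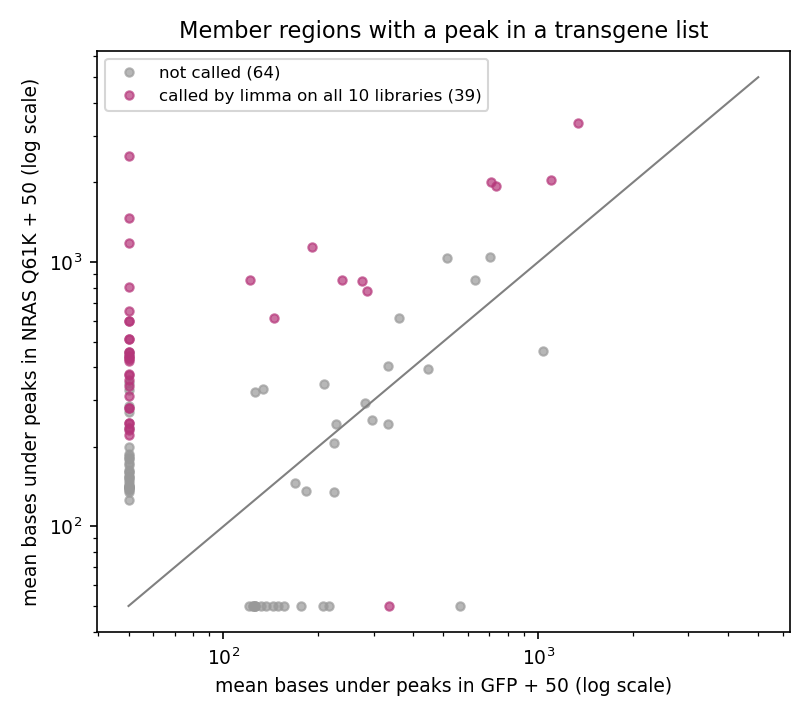
Mean bases under peaks plus 50 in GFP (x axis) and NRAS Q61K (y axis), on log scales, for the 103 members with a peak in at least 1 transgene list, with the 39 called by limma on all 10 libraries in colour and a line of equal width. Most called members sit at the left edge, where GFP had no peak, and 1 called member sits on the bottom edge, where NRAS Q61K had none.

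The member with the lowest p lay at 16q23.1 (chr16:77822044-77824987). It had 0 bases in both GFP libraries, 2455 and 2494 in NRAS Q61K, and 1310 and 1471 in the resistant libraries. The mark was thus wider in both NRAS Q61K libraries than in either resistant one. The log2 difference from GFP was 3.79 ± 0.20 (SE), with an adjusted p of 2.01e-04 in limma on all 10 libraries, and 0.0519 in the fit on the 4 transgene libraries.

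Both members next in order lay at 2q13, a band known for near-identical duplicated segments in which the origin of a short read can be uncertain. The first (chr2:110656386-110658563) had no GFP peak, 1697 and 1125 bases in NRAS Q61K and 1225 and 1213 in the resistant libraries, with an adjusted p of 7.75e-04 in limma. The second (chr2:111227961-111230507) had no GFP peak, 1029 and 1227 bases in NRAS Q61K and 1469 and 1613 in the resistant libraries, with an adjusted p of 9.92e-04. Their adjusted p values were 0.0673 and 0.0722 in the fit on the 4 transgene libraries, and 0.463 and 0.995 in lists cut to equal length, so neither call held in those settings.

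At 4p12 (chr4:46391257-46392153) the libraries had 0 bases in GFP, 546 and 554 in NRAS Q61K and 698 and 553 in the resistant cells, with an adjusted p of 2.58e-03 in limma and of 0.0944 with the 4 transgene libraries alone. At 10q22.1 (chr10:71560953-71562207) they had 0 in GFP, 786 and 716 in NRAS Q61K and 1255 and 720 in the resistant cells, with an adjusted p of 3.30e-03, of 0.0826 with the 4 transgene libraries alone and of 0.120 where peaks needed a −log10 q of at least 10. In both members the NRAS Q61K and resistant values were of like size and all GFP values were 0. The only member called narrower lay at Xp22.33 (chrX:148200-148628), in the pseudoautosomal stretch that X shares with Y. It had 385 and 185 bases in GFP, none in NRAS Q61K and 312 and 300 in the resistant libraries, with an adjusted p of 0.0184 in limma, and of 0.127 with the 4 transgene libraries alone. The call was also lost in other settings, among them those without either resistant or either NRAS Q61K library. In lists of equal length the region had no transgene peak, and where peaks needed a −log10 q of at least 10 it had none in any list.

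Of the 17 members with a peak in all 4 transgene lists, 10 had more bases in both NRAS Q61K libraries than in both GFP libraries. The same count was not made over all regions. At 2q35 (chr2:217555865-217561031) the NRAS Q61K libraries had 3911 and 2720 bases, the GFP libraries 1040 and 1543, and the resistant libraries 742 and 588. At 5q31.3 (chr5:143300536-143303121) the values were 2074 and 1908 in NRAS Q61K, 1121 and 977 in GFP, and 670 and 802 in the resistant cells. At 2q33.1 (chr2:202270248-202272312) they were 1992 and 1913, 622 and 691, and 973 and 990. In the first 2 the resistant cells thus had the narrowest mark of the 3 groups, and in the third they lay between.

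At 1q21.1 (chr1:145524388-145528085) the resistant libraries had 2217 and 1894 bases and the NRAS Q61K libraries 1969 and 1801, with 698 and 673 in GFP. The resistant and NRAS Q61K values overlapped, and GFP lay below both. At 12p13.32 (chr12:4251978-4252794) the values were small in every group, with 544 and 346 in the resistant, 597 and 526 in NRAS Q61K and 336 and 285 in GFP cells. In all, 10 members (2.27%) had more bases in both NRAS Q61K libraries than in both resistant ones. More bases in both GFP libraries than in both resistant ones were found in 4 (0.907%). These counts were not made over all regions, so they are not read as a trait of the members. In these few members the mark, absent from the parental and colony lists, was wider in transgene cells than in resistant ones.

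**Figure D5:**
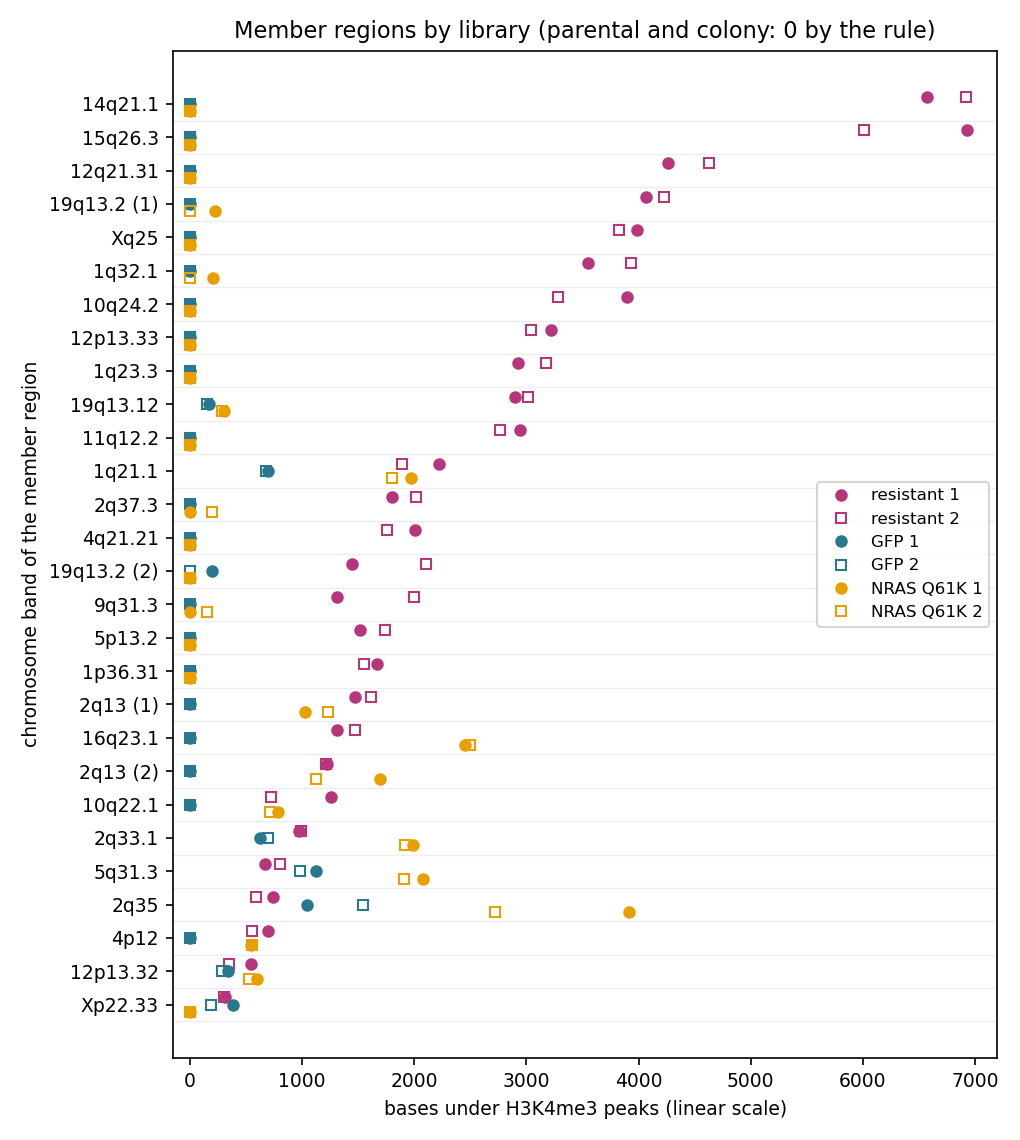
Bases under peaks (x axis, linear) in the 2 resistant, 2 GFP and 2 NRAS Q61K libraries for 28 members named by position in the text (y axis, chromosome band, with numbers in brackets where a band holds more than 1), sorted by the mean of the resistant libraries. The upper members have their highest values in the resistant libraries and are at or near 0 elsewhere. In 16q23.1, 2q35, 5q31.3 and 2q33.1 both NRAS Q61K values lie above all GFP and resistant values.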

How the data were processed

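H3K4me3 ChIP-seq peak lists of 10 libraries (5 groups of 2) were used; the 10 matching input samples have no list here. The authors deposited 1 narrowPeak list per library. Per the submitters' processing notes the tools were BWA, SAMtools, MACS2 2.1.2 and deepTools 2.5.4 on GRCh37/hg19; for the options, the use of inputs and the treatment of duplicates, the sources used here give nothing. Per the deposited files, each peak has a score, a fold enrichment (a ratio) and −log10 p and q values. None of these was tested as a change between libraries. Where −log10 q values of different groups stand side by side, at the regions just outside the rule, they are a description only.

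Peaks were merged within 1000 bp, 589 peaks on other sequences were left out, and the bases under peaks were summed per region and library. Bands came from circlize 0.4.16. Regions marked in 2 or more lists were fitted with limma 3.58.1 (R 4.3.3) on log2(bases + 200), centred per library. The fit had a trended prior and Benjamini-Hochberg adjustment. The code was tested on simulated data, in which only wide regions with peaks in all 4 transgene lists were changed. That test is of the code and not of the calls for members. The labels do not say that replicates were separate cultures, so the p-values reflect only how these libraries vary, which may be technical.

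Regions named were the 12 strongest members, the 5 widest others, the 5 strongest in all and in none of the transgene lists, the 5 lowest adjusted p in each direction, and 3 on either side of the rule. The members and lists were chosen with earlier results of these data known. Gene names, marker lists and sequences were not used, because no genome or annotation of GRCh37 was at hand and coordinates were not converted between builds.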

Additional observations from a re-analysis of the deposited data

How the results depend on the processing

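Of 23 alternative settings, 14 choose the members anew, and in 1 of these the count of 441 moved past 1.5 times: keeping only peaks with −log10 q of 10 or more left 285 members, of which 7 were in all 4 transgene lists (17 otherwise) and 212 in none (338 otherwise). That setting gave 23 members wider and 0 narrower in NRAS Q61K, and 0 in both GFP lists and no NRAS Q61K list. Lists of equal length gave 6 in all 4, 516 in none, 21 wider and 1 in both GFP lists only, and left Xp22.33 with no transgene peak, so that its log2 difference of 0.0221 is only the shift from centring. Requiring 200 bases gave 1 in both GFP lists only. A pseudocount of 50 bases gave 2 narrower and one of 1000 gave 0. The fit on the 4 transgene libraries gave 0 wider and 0 narrower.

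Leaving out 1 library at a time gave 17 to 33 members in all 4 transgene lists, 9 to 64 wider, 0 to 3 narrower, 31 to 53 in every NRAS Q61K list and no GFP list (29 with all libraries), and 2 to 9 in every GFP list only. Without parental 1 the counts were 33 in all 4, 64 wider and 45 in every NRAS Q61K list only; without NRAS Q61K 1, 9 were wider; without NRAS Q61K 2, 17 were wider and 53 in every NRAS Q61K list only; without GFP 1, 23 were wider. Without resistant 2, 26 were in all 4. Leaving out a parental, colony or resistant library also loosens the rule of the members. Without 1 transgene library, the patterns over the transgene lists set a condition on fewer lists. A rise in the counts of these patterns was therefore largely fixed in advance.

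With the replicate number as a replicate block, 37 members were wider and 1 narrower. The deviations of same-numbered GFP and NRAS Q61K libraries correlated at 0.0286 over 23153 regions, so the numbers are not known to pair the libraries. Read depth is unknown, and a weak mark below a list's threshold cannot be told apart from none.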
